A study of Homo sapiens with 4 samples.

Results

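The mRNAs of the mitochondrial ribosome and of respiratory complex I were examined for antibody enrichment of N7-methylguanosine (m7G), the modified base at the 5′ cap of mRNAs, which is also studied at internal positions. Members were all protein-coding genes whose symbol begins with MRPL, MRPS or NDUF, which gave 123 of 20056 annotated protein-coding genes, 77 of them MRPL or MRPS and 46 NDUF. The values come from 2 immunoprecipitated (IP) libraries of untreated U2OS cells, an established human osteosarcoma line, in which poly(A) RNA was pulled down with an anti-m7G antibody. The other 2 samples are their input libraries, poly(A) RNA of the same untreated line without antibody, and they enter only through the fold of IP over input, which like each p-value is the authors' own value for the peak. Each IP replicate has its own table of peaks, with 4326 peaks in replicate 1, of which 19 lie on members, and 4862 in replicate 2, of which 22 do. The tables hold no read counts, so the depth behind a peak is unknown, and a gene without a row has no peak past the authors' threshold, which says nothing of how strongly it is expressed. The labels do not say that the replicates are separate cultures, so the spread between them may be technical. Of 10 markers of mesenchymal or osteosarcoma cells, 7 had a peak shared by both replicates, THY1 had peaks in replicate 2 alone, and COL1A2 and RUNX2 had none. Of 10 markers of blood, liver, epithelial and glial cells, 0 had a peak, against 21.6% of all protein-coding genes with one in either table. The epithelial markers were only EPCAM, KRT5 and CDH1. Outside this list, the keratin genes KRT18 (folds of 2.39 and 1.88) and KRT81 (2.94 and 2.39) had shared peaks.

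Mitochondria keep a small genome whose mRNAs are translated by their own ribosome. All proteins of that ribosome are encoded in the nucleus, made on cytosolic ribosomes and imported. Most proteins of the large subunit have MRPL symbols and most of the small subunit MRPS symbols. Members were grouped here by symbol, and the prefix does not always give the subunit. Complex I, the NADH dehydrogenase at the entry of the respiratory chain, joins core subunits that carry the redox centres and pump protons, in part made inside the organelle, to many accessory subunits that are all nuclear. The NDUFAF proteins help to assemble it and are not part of the finished enzyme.

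A peak in replicate 1 was present on 18 members, against 15.9% of all protein-coding genes, and a peak in replicate 2 on 21, against 17.4%. These are 14.6% and 17.1% of the members. In all, 28 members (22.8%) had a peak in either table, against 21.6% of all protein-coding genes, and 95 had none. A shared peak, meaning same-strand peaks of both tables with 1 bp or more in common, was found on 11 of 123 members (8.94%, Wilson 95% interval 5.07 to 15.3, for counting error only), against 10.5% of all protein-coding genes. The members therefore carried peaks about as often as all annotated protein-coding genes, expressed or not. Members are also shorter, with a median gene span of 10986 nt against 24092.5 nt, and the shares were not adjusted for span or expression. All 11 members that had a peak in both tables, as 11.6% of all protein-coding genes did, had it at the same place, and so did 90.0% of the 2334 protein-coding genes with a peak in both. One of the 11 is NDUFC2-KCTD14, a readthrough gene listed at nearly the same position as NDUFC2, so the 11 symbols stand for 10 places. Of the 28 members with any peak, 39.3% had a shared one, against 48.4% of all protein-coding genes with any peak.

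The counts by complex stand beside 10.5% of all protein-coding genes with a shared peak and 21.6% with any peak. Accessory subunits of complex I had a shared peak on 6 of 31 symbols (19.4%, Wilson 9.19 to 36.3) and a peak in either table on 12. Both counts and the interval take NDUFC2 and NDUFC2-KCTD14 as separate symbols although they share a place, so they overstate the share by subunit. MRPL genes had a shared peak on 3 of 49 (6.12%, 2.10 to 16.5) and MRPS genes on 2 of 28 (7.14%, 1.98 to 22.6). A peak in either table was found on 8 of each. The 7 nuclear core subunits of complex I had no peak in either table, and neither did any of the 8 assembly factors NDUFAF1 to NDUFAF8. The intervals of these groups overlap, and differences between them were not tested.

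**Figure D1:**
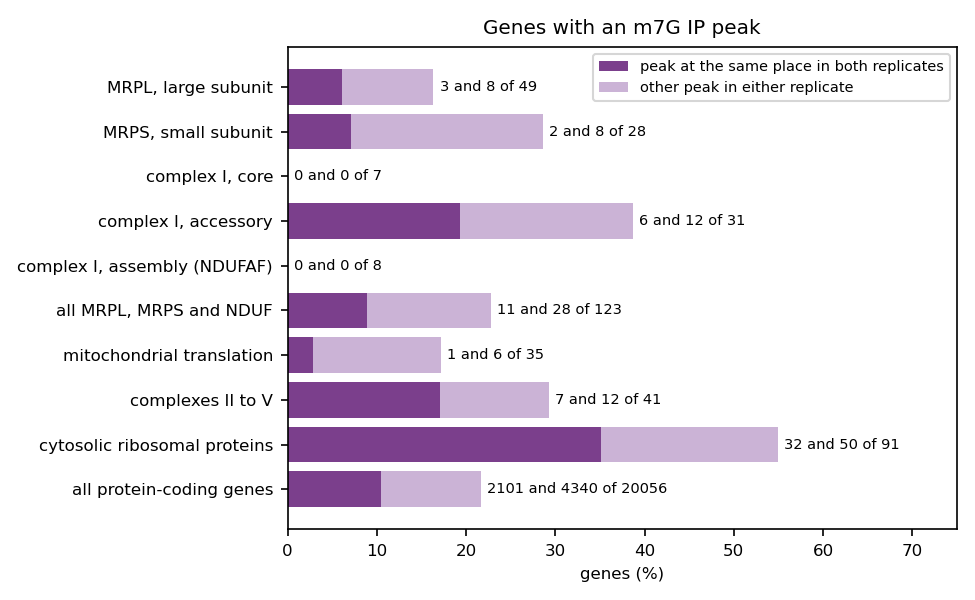
Share of genes with an m7G IP peak, in percent, for the groups of MRPL, MRPS and NDUF genes, for related gene lists and for all protein-coding genes. Dark bars are genes with a shared peak and light bars add genes with any other peak; the numbers give both counts and the group size. Complex I core and assembly genes had none, and all members together (11 and 28 of 123) lie close to all protein-coding genes.

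The shared peaks of MRPL genes lay on MRPL37, MRPL15 and MRPL51, which all encode structural proteins of the large ribosomal subunit. MRPL37 had a fold of 1.74 in replicate 1 and 2.45 in replicate 2. Its peak lay on chromosome 1 from 54212511 to 54212600 (GRCh38, plus strand) in replicate 1, near the middle of the gene, 12388 nt from the annotated start. In replicate 2 a 129 nt block covered that stretch and a 49 nt block was added upstream, for a false discovery rate of 2.00e-16 against 0.000138 in replicate 1.

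MRPL51 had folds of 1.94 and 1.81, with the lowest false discovery rates among the members, 3.16e-18 and 5.01e-28. Its peak ran over 3 blocks on chromosome 12 from 6492209 to 6493246 (minus strand) in replicate 1 and to 6493217 in replicate 2. The blocks of 259 and 111 nt had the same ends in both tables, and the block nearest the gene start was 189 nt long in replicate 1 and 160 nt in replicate 2. The peak covered 559 and 530 nt of a gene that spans 1377 nt, introns included. It began 16 nt inside the annotated start in replicate 1 and 45 nt inside it in replicate 2. MRPL51 thus paired a low fold (percentiles 12.9 and 16.6 of the tables) with a high significance (percentiles 90.9 and 93.3).

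MRPL15 had folds of 1.99 and 2.14, with its peak midpoint 98 and 69 nt from the annotated start. The peak covered chromosome 8 from 54135280 in replicate 1 and from 54135251 in replicate 2 (plus strand), and 90 nt were common to both. A second block of 8 nt belonged to it in replicate 1 alone. These 3 mRNAs had similar low folds and differed in where the peak lay: near the start in MRPL15, in blocks along the gene in MRPL51 and mid-gene in MRPL37.

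Among the MRPS genes, shared peaks lay on MRPS24 and MRPS34. MRPS34, a protein without a bacterial counterpart, had folds of 1.61 and 1.48 for a peak of 118 nt in both tables. On chromosome 16 it covered 1772129 to 1772246 (minus strand) in replicate 1 and lay 29 nt closer to the start in replicate 2, with 89 nt in common. Its midpoint was 292 and 321 nt from the annotated gene end.

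MRPS24 had folds of 1.88 and 1.63. Its 78 nt block near the gene end, on chromosome 7 from 43866905 to 43866982 (minus strand), was identical in both tables. A block further upstream was 112 nt long in replicate 1 and 39 nt in replicate 2, and replicate 1 had another of 43 nt. The annotated span of the readthrough gene URGCP-MRPS24 also covers this peak.

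Among complex I accessory subunits, NDUFB7 had the highest mean log2 fold of the 11, although NDUFC2 was higher in replicate 2. NDUFB7, a small cysteine-rich subunit on the intermembrane-space side, had a fold of 4.94 in replicate 1 and 3.22 in replicate 2, with false discovery rates of 5.01e-13 and 6.31e-15. The peak ended exactly at the annotated gene end, on chromosome 19 from 14566078 (minus strand), and reached 14566250 in replicate 1. In replicate 2 its first block was 188 nt long, and a second block of 42 nt was added. Even so, 49.1% of all 2636 shared peaks on protein-coding genes had a lower mean log2 fold than NDUFB7, which puts the members' highest mean at about the middle of the series.

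NDUFC2, a subunit of the membrane arm, differed most between replicates, with folds of 1.77 and 4.18, a factor of 2.36. The median factor between replicates over all shared peaks was 1.23, and NDUFC2 lay near the upper end of that spread, since 95% of shared peaks differed by less than 1.28 on the log2 scale and NDUFC2 by 1.24. Its peak lay at the annotated gene start on chromosome 11, from 78079742 to 78079861 in replicate 1 and to 78079921 in replicate 2 (minus strand), which is 59 nt beyond that start. The readthrough gene NDUFC2-KCTD14 was listed with folds of 1.78 and 4.18, shifted by 2 nt in replicate 1, and reads of both cannot be told apart in these tables.

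The other complex I mRNAs with a shared peak had the lowest mean log2 folds of the 11. NDUFB10, another cysteine-rich subunit of the intermembrane-space side, had 1.48 and 1.57, with its midpoint 123 and 94 nt from the gene start and 30 nt in common. NDUFS6, a zinc-binding accessory subunit of the matrix arm, had 1.34 and 1.54. Its peak was spread over 2 blocks in replicate 1 and 4 in replicate 2, which in replicate 2 run from 32 nt inside the gene start to 169 nt before the gene end, and a 123 nt block from 1814339 to 1814461 on chromosome 5 was identical in both. NDUFB11, an X-linked subunit of the membrane arm, had 1.27 and 1.60 over 2 blocks whose inner ends were the same in both tables. Its peak edge lay 931 and 901 nt from the gene start of the gene table, but RefSeq's promoter table places a start further downstream, from which the peak midpoint was 216 nt away in both replicates. In NDUFS6 and NDUFB11, as in MRPL37, the false discovery rate was far lower in replicate 2 than in replicate 1, at 2.88e-10 against 0.000229 for NDUFS6 and 6.31e-16 against 0.00263 for NDUFB11. It was higher in replicate 2 for MRPS24 (3.31e-06 against 4.27e-09), MRPL15 (0.0174 against 0.000427) and MRPS34 (0.00234 against 0.000513).

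**Figure D2:**
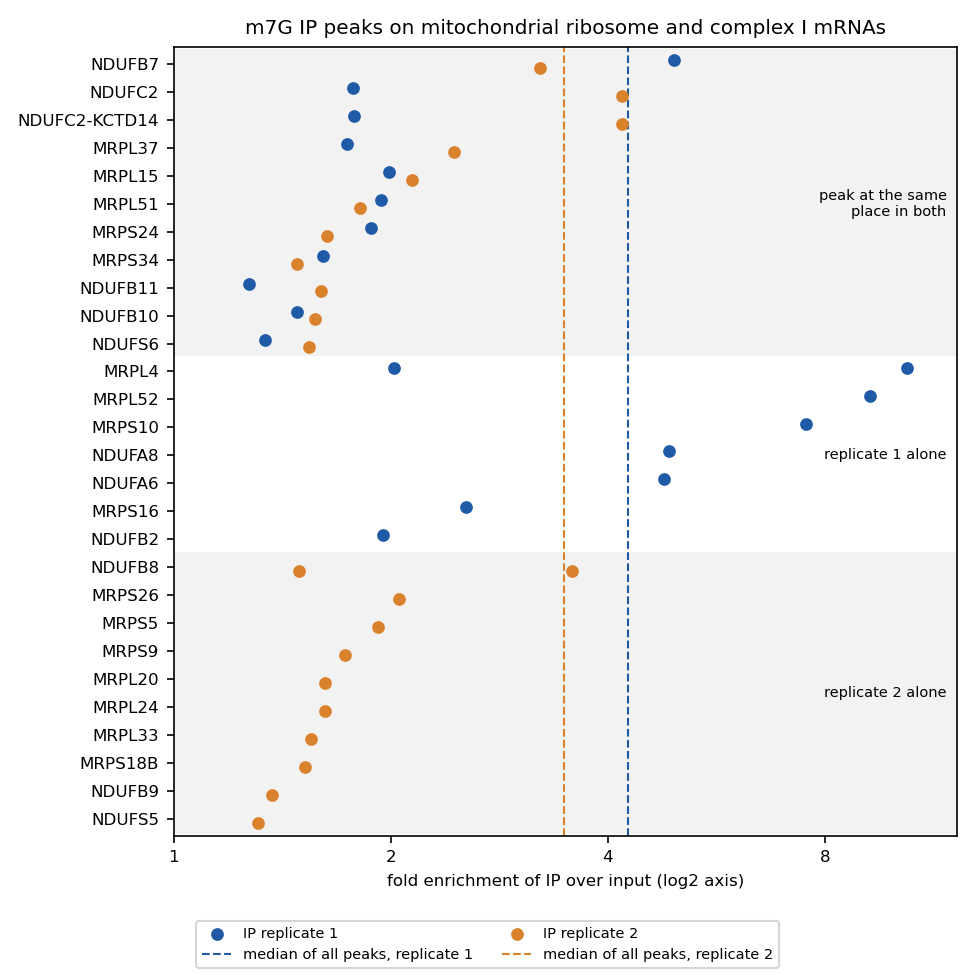
Fold of IP over input (log2 axis) of every peak on the 28 members with a peak, by IP replicate, grouped by whether the peak was shared. Dashed lines are the medians of all peaks, 4.27 in replicate 1 and 3.48 in replicate 2. Most points lie left of both lines, and the folds over 5 belong to replicate 1 alone.

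Peaks found in replicate 1 alone included the highest folds of the members. MRPL4, a large-subunit protein, had 10.4 at its gene start (midpoint at 87 nt) and a second peak of 2.02 at 631 nt. MRPL52 had 9.25 with its midpoint 398 nt from the gene end, and MRPS10 had 7.54 at 573 nt from the gene end. The value 9.25 was the most frequent fold in the replicate 1 table, held by 68 peaks, so it is not a value particular to MRPL52. NDUFA8, a cysteine-rich subunit of the intermembrane-space side, had 4.87 at 93 nt from the gene start. NDUFA6, a subunit of the matrix arm that binds the mitochondrial acyl carrier protein, had 4.78, with its midpoint 23 nt before the annotated start. MRPS16 (2.54) and NDUFB2 (1.95, midpoint at 89 nt) completed the 7 members. The annotated spans of the antisense RNAs DNAJC9-AS1 and NDUFB2-AS1 also cover these last peaks.

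In replicate 2 alone, peaks lay on 10 members and had low folds. NDUFB8, a membrane-arm subunit, had the highest, 3.57, over the first 60 nt of the gene, and a second of 1.49 in 2 blocks at 2922 nt. The others were MRPS26 (2.05), MRPS5 (1.92), MRPS9 (1.73), MRPL20 and MRPL24 (1.62 each), MRPL33 (1.55), MRPS18B (1.52), NDUFB9 (1.37) and NDUFS5 (1.31). The annotated span of MRPS9-AS1 also covers the MRPS9 peak. The median fold of member peaks without a partner was 4.83 in replicate 1 (8 peaks, 1.95 to 10.4) and 1.62 in replicate 2 (11 peaks, 1.31 to 3.57), against 4.43 and 3.05 for all unpaired peaks of each table. For member peaks with a partner it was 1.77 and 1.81, against 4.14 and 3.80.

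The members' shared peaks had a lower median fold than those of the series as a whole. The median over the strongest shared peak of each gene was 0.91 on the log2 scale (11 symbols, interquartile range 0.62 to 1.24), a fold of 1.87, against 2.20 (2101 genes, 1.46 to 2.95), a fold of 4.59, over all protein-coding genes with a shared peak. A fold under 2 in both replicates was found at 6 of the 11 (54.5%), against 9.28% of all such genes and 12.6% of all shared peaks, and 0 of the 11 reached 4 in both replicates, against 49.3% of all genes with a shared peak. By peak, 13 of 19 member peaks in replicate 1 lay below the median fold of the table, against 50% of all peaks, and 19 of 22 in replicate 2, against 49.9%. Likewise, 11 of 19 member peaks in replicate 1 had a fold under 2 (57.9%, against 13.9% of all peaks), and 15 of 22 in replicate 2 (68.2%, against 21.4%). Significance did not stand as low as fold: the median member peak was at percentile 42.9 by p-value and 13.1 by fold in replicate 1, and at 45.4 and 11.4 in replicate 2. Between replicates, the median absolute log2 difference of the shared member peaks was 0.21, against 0.30 over all shared peaks. NDUFC2 and NDUFC2-KCTD14 enter these counts and medians as separate symbols although they share a place, and folds by place were not computed. These values describe the list, and no test was made of it.

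**Figure D3:**
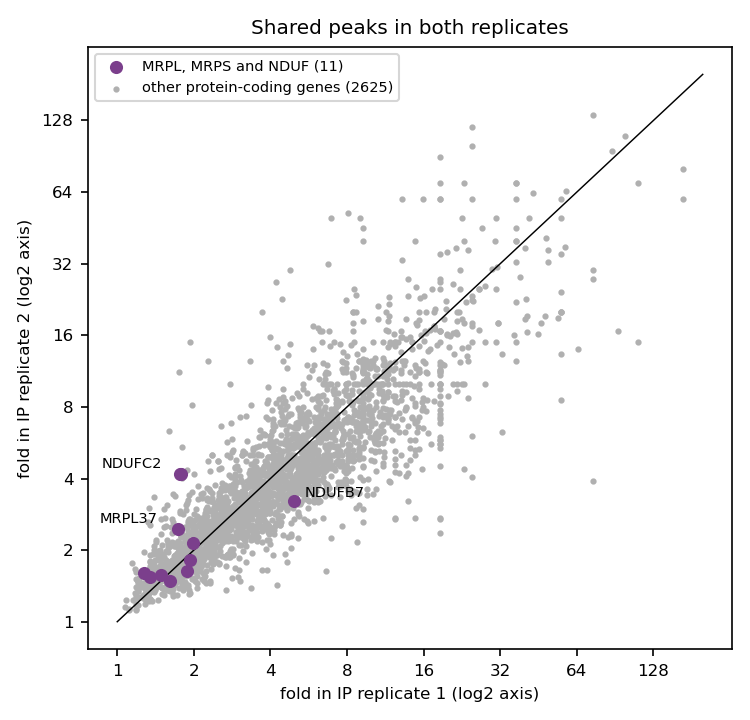
Fold in IP replicate 1 against fold in IP replicate 2 (both log2 axes) for shared peaks, with the 11 peaks of MRPL, MRPS and NDUF genes in purple and those of other protein-coding genes in grey; the line marks equal folds. NDUFC2 and NDUFC2-KCTD14 overlap at 4.18 in replicate 2, NDUFB7 stands furthest right of the members at 4.94, and the other members lie in the lower left corner.

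By position, shared peaks of members lay at gene starts and away from them. The midpoint was within 200 nt of the annotated start in both replicates for 4 of 11 (36.4%, Wilson 15.2 to 64.6), against 20.6% of all 2636 shared peaks on protein-coding genes, and these 4 were MRPL15, NDUFB10, NDUFC2 and NDUFC2-KCTD14. Counted by place they are 3 of 10. In replicate 1, 6 of 9 NDUF peaks and 2 of 10 MRPL or MRPS peaks lay that near the start, against 22.6% of all peaks on protein-coding genes. In replicate 2 it was 4 of 10 NDUF peaks and 1 of 12 MRPL or MRPS peaks, against 19% of all. With the NDUFC2 place counted once, the NDUF counts were 5 of 8 and 3 of 9. The families were not tested against each other. MRPL51, MRPS34 and NDUFB7 had their midpoints within 1000 nt of the gene end in both replicates. That made 3 of 11, against 14.8% of all shared peaks. Peaks within 200 nt of the start in both replicates were left out of both counts. The MRPS34 gene spans only 1240 nt, and the MRPL51 gene is so short that its midpoint, at 380 and 395 nt, was nearer the start. In replicate 2, 14 of 22 member peaks had more than 1 block (63.6%), against 34.7% of all peaks, but in replicate 1 it was 5 of 19 (26.3%), against 30.8%. Distances are genomic, and exon and coding annotation was not used here.

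**Figure D4:**
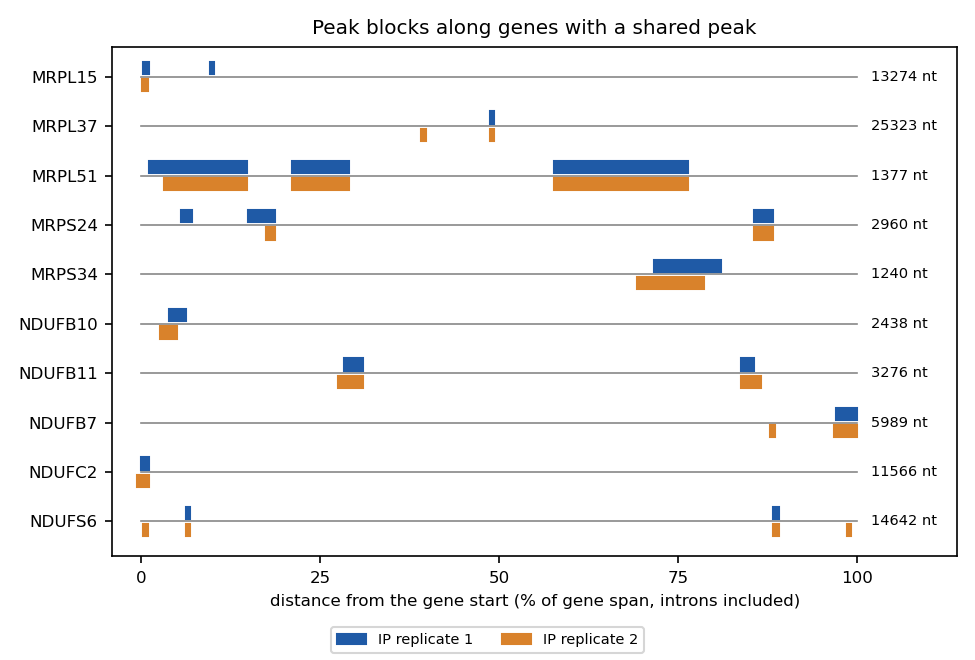
Blocks of the shared peak along each gene, drawn as percent of the gene span from the annotated start, introns included, with replicate 1 above and replicate 2 below the line and the gene span at the right. NDUFC2 and NDUFB10 have blocks at the start, NDUFB7 at the end, and MRPL51 and NDUFS6 along the gene.

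The sequences around the start show how far the peaks reached it, since the cap is itself m7G. Of the 123 members, 109 had a sequence in RefSeq's promoter table (GRCh38.p14). Printed are those in which a peak of either table covered at least 10 bases of the window from 60 bases before the start to the 30 bases from it on, 5′ to 3′ on the strand of the gene, with the bases under a peak in capitals. MRPL15, whose replicate 2 peak began 10 nt inside the gene start, had no sequence there under its symbol and could not be printed. The NDUFC2 window, chr11:78079833-78079922, is stored under NDUFC2-KCTD14, which has the same start. The peaks listed under NDUFC2-KCTD14 covered 31 bases of the window in replicate 1 and all 90 in replicate 2.
NDUFC2-KCTD14: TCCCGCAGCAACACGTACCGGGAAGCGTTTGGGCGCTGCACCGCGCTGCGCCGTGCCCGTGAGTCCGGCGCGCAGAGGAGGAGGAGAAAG
MRPL51: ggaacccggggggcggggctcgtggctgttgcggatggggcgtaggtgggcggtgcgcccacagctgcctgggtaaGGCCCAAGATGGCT
NDUFA6: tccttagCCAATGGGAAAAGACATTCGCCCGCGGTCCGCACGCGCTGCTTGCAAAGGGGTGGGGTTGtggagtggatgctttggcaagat
NDUFB8: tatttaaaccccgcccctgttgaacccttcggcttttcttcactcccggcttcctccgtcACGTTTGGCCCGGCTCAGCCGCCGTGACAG
MRPL4: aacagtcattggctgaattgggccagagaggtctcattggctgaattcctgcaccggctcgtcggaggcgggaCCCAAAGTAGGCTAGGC
The MRPL51 window is chr12:6493233-6493322 (minus strand), of which the replicate 1 peak covered 14 bases. The NDUFA6 window is chr22:42090743-42090832 (minus strand), where the 60 bases under the replicate 1 peak lie mostly before the annotated start. The NDUFB8 window is chr10:100529894-100529983 (minus strand), where the replicate 2 peak began at the start itself. The MRPL4 window is chr19:10251891-10251980 (plus strand), of which the replicate 1 peak covered 17 bases. Bases before a start under an RNA peak, as in NDUFC2 and NDUFA6, lie outside the gene as the table annotates it.

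The first 50 transcribed bases of members had a median GC content of 64%, the same as those of all 15843 protein-coding genes with a sequence. The motif GANGAN, searched on the transcribed strand with overlaps allowed, was found there in 19 of 109 members (17.4%), against 18.4% of all. Among the 7 members with a sequence whose peak lay within 200 nt of the start in either table, it was found in 1, NDUFC2-KCTD14. A match is a description of these letters and not of a site.

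Shared peaks were also counted on other genes of the same pathways, beside 10.5% of all protein-coding genes. Of the 5 proteins of the mitochondrial ribosome with other symbols, shared peaks lay on AURKAIP1 (2.21 and 2.86) and CHCHD1 (2.34 and 1.67), both of the small subunit. AURKAIP1 also had an unshared peak of 13.3 in replicate 2, and DAP3 had 2 peaks in replicate 2 alone, the stronger of 5.26. Of 35 genes of mitochondrial translation and ribosome assembly, 1 had a shared peak, MTIF2, the mitochondrial initiation factor (2.97 and 3.49). Of 12 complex I assembly genes without the NDUF prefix, 0 had one. Complexes II to V had 7 of 41 (17.1%), with a median fold of 3.81, led by SDHC and SDHD, the membrane anchors of complex II (21.6 and 18.3, and 10.2 and 4.76), and CYC1, cytochrome c1 (5.55 and 3.57). NDUFA4, also meant for that list, had no match among the annotated protein-coding symbols and is counted neither there nor among the members. Cytosolic ribosomal protein genes, taken by symbol, had 32 of 91 (35.2%), with a median fold of 1.58, led by RPS2 (5.31 and 5.64). Without RPS19BP1, which that rule takes in but which encodes a protein that binds one, a setting added after the data were seen, it was 31 of 90 (34.4%), with the same median. Ribosomal protein genes have many processed pseudogenes, and the treatment of reads that match several places is unknown here, so these values are less certain. The median fold of the MRPL and MRPS genes was 1.87 over 5 genes, and their share was 6.49% of 77. No difference between these lists was tested, and expression, which the tables do not give, was not compared.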

How the data were processed

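Anti-m7G IP and input libraries of poly(A) RNA from untreated U2OS cells were sequenced, 2 each, and grouped by their titles. The submitters' processing notes name STAR and the GRCh38 build, without their roles. No source used here names the peak caller. Each IP replicate has its own peak table. Per the file headers, the deposited tables give for each peak a p-value, the log10 of the p-value and of a false discovery rate (treated as a score) and a linear fold, the ratio of IP to input. The scaling the authors applied to it is not given in these sources. The weakest false discovery rates were 0.0490 and 0.0479.

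Table names were matched to RefSeq genes of GRCh38.p14 within 2000 nt (6 and 8 peaks unmatched). Peaks were paired by their blocks, strand by strand, and mutually best overlaps of at least 1 bp were kept (2642 pairs, 2636 on protein-coding genes). Midpoints are the middle base of the joined blocks. Coordinates are 1-based. Every member with a peak is named, and in other lists up to 3 genes by the lower fold. Members and lists were chosen with earlier results of these data known, so lists are described without a test. The overlap search was tested on simulated data with a single-block peak for each gene. That test did not cover peaks of several blocks or a peak listed under overlapping genes, as with NDUFC2 and NDUFC2-KCTD14. Software was matplotlib 3.10.9, scipy 1.17.1, pandas 2.3.3, numpy 2.4.6 and Python 3.11.15.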

Additional observations from a re-analysis of the deposited data

How the results depend on the processing

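With 50% reciprocal overlap the same 11 members had a shared peak, against 8.68% of all protein-coding genes, and with midpoints within 100 nt 8 did, against 9.47%. The members' share thus lies above that of all genes under the first and below it under the main rule. NDUFC2 is missing from the 8 although its own midpoints, 61 and 31 nt from the start, meet the limit. Its replicate 2 peak was paired with the replicate 1 peak of NDUFC2-KCTD14, so this loss comes from the doubled listing. Among peaks more significant than the median of each table the count was 4 (MRPL37, MRPL51, MRPS24 and NDUFB7), against 6.30% of all protein-coding genes, and requiring both folds to reach 4 it was 0, against 5.17%. Adding mitoribosomal proteins with other symbols gave 13, leaving out assembly factors 11, and counting the readthrough gene with NDUFC2, a setting added after the data were seen, 10. With a single replicate, any peak counted and the number was 18 to 21. The median log2 fold of shared member peaks stayed between 0.80 and 0.91 under the 6 alternatives tried. Shared peaks near the gene start numbered 3 at 100 nt, 5 at 500 nt and 4 with any block within 50 nt of the start. With the starts of the promoter table, a setting added after the data were seen, they numbered 4. MRPL15 and NDUFC2 are counted there although the promoter table has no start under their own symbols, so for them it is no separate check. Peaks of a single replicate near the start numbered 5 to 8. No paired analysis was possible because each deposited table already sets an IP library against input and no counts were given. Without counts, the error of a single peak's fold cannot be set, and members without a peak cannot be told from members that are weakly expressed.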
